A study of Homo sapiens with 12 samples.

Results

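The C-type lectin genes described here, 10 members of a family that myeloid cells are known for, were followed in MOLM-13 cells, namely CLEC10A, CLEC7A, CLEC4A, CLEC12A, CLEC5A, CLEC11A, CLEC2B, CLEC2D, CD209 and MRC1. They were picked by gene symbol from the deposited expression table, in which the rows of each symbol were summed, and all 10 were found among its 46639 symbols. MOLM-13 is a human acute myeloid leukemia (AML) line with a translocation that fuses MLL (KMT2A) to AF9, and every culture received granulocyte-macrophage colony-stimulating factor (GM-CSF). The culture methods of the paper do not name GM-CSF. The study asked how the DNA-hypomethylating agent DAC (decitabine) and ATRA (all-trans retinoic acid, a ligand of retinoic acid receptors) act alone and together. RNA was read in 12 libraries, 3 for each of 4 groups: untreated cells, cells given 100 nM DAC, cells given 1 µM ATRA, and cells given both (DAC+ATRA). The labels put untreated cells at 96 h and treated cells at 72 h, the design text names 72 h for the harvest, and the methods add ATRA only with the last DAC dose; no library of cells given the solvent of either drug was analysed here. The triplicates are called technical, so every p-value below measures the spread within a single experiment on a single line.

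C-type lectins carry a fold that in many members binds sugars in a calcium-dependent way, and myeloid cells use them to take up glycosylated material, to sense microbes and dying cells, and to hold back or start signalling. CLEC10A, CD209 (DC-SIGN) and MRC1 (the mannose receptor) bind glycans and are commonly used to mark dendritic cells and macrophages. CLEC7A (Dectin-1) recognises fungal beta-glucan and signals through the kinase SYK and the adaptor CARD9, CLEC5A has no signalling motif of its own and pairs with the adaptors TYROBP and HCST, and CLEC4A and CLEC12A carry inhibitory motifs. CLEC12A is in addition a surface antigen used to recognise AML cells. CLEC2B and CLEC2D are ligands of receptors on natural killer cells, whereas CLEC11A is a secreted growth factor.

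Promoter sequences from RefSeq (GRCh38.p14, the 250 bases before each gene's start) were at hand for CLEC5A, CLEC12A, CLEC11A, CLEC2D and CD209, which makes 5 of the 10 genes. Those of CLEC5A and CLEC12A, which fell together with ATRA, and of CD209, which rose, are shown, 5′ to 3′ on the gene's strand. Capitals mark GAGGAA or its reverse complement TTCCTC, a longer form of GGAA, the core that ETS factors such as PU.1 bind. The CLEC5A window is at chr7:141946975-141947224 (minus strand), that of CLEC12A at chr12:9971159-9971408 (plus strand, inside the longer gene span of GENCODE), and that of CD209 at chr19:7747535-7747784 (minus strand).
CLEC5A: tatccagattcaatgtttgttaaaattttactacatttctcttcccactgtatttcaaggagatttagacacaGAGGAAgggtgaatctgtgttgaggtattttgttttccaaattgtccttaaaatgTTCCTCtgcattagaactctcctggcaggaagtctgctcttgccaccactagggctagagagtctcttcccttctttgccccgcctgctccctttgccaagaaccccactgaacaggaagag
CLEC12A: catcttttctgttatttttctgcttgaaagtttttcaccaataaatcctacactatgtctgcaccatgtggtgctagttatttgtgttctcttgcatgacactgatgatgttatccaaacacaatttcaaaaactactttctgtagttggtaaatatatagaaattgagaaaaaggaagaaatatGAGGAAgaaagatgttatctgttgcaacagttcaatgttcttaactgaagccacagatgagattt
CD209: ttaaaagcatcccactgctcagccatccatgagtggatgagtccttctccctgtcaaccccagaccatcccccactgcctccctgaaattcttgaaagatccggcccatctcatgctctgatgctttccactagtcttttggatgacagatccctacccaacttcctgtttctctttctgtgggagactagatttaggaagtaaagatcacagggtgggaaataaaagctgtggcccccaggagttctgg
The GAGGAA motif began 177 and 122 bases before the gene's start in CLEC5A and 65 bases before it in CLEC12A. It was not among the letters of the CD209 window. The bare GGAA or TTCC, left unmarked, stands in each of the printed windows, that of CD209 included. GAGGAA on either strand was held by 23.6% of 35116 promoters of the same length. AGGTCA, the half-site of retinoic acid receptors, or its reverse complement TGACCT was in none of the 5 windows and in 12.1% of all promoters. The CG dinucleotide, at which human DNA is methylated and DAC acts, occurred 0 times in the CLEC12A window and 1 time in those of CLEC5A and CD209, against a median of 11 over all promoters. CLEC2D held 4 and CLEC11A 10. The CLEC2D window held the GAGGAA motif 146 bases before the start, and the CLEC11A window held none. CLEC2D also fell with ATRA, a call that was lost in 12 of 25 alternatives. A match is a string of letters and no evidence of binding.

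Values are normalised counts, that is, reads divided by the size factor of the library, and 1 read was worth 0.627 to 1.57 normalised counts. The reads recovered per library were 8.95 to 11.9 M in untreated, 4.67 to 6.95 M in DAC, 8.36 to 10.7 M in ATRA and 5.61 to 7.16 M in DAC+ATRA (M stands for mega), so low genes are measured least well in the groups with DAC. Reads that fit several transcripts appear to have been left out when each transcript was counted, so levels of different genes are not comparable. All 11 markers of MOLM-13 and myeloid leukemia reached 10 or more normalised counts in 3 or more libraries. Of the marker lists of other cells, 6 of 10 monocyte and macrophage, 6 of 10 conventional dendritic cell, 4 of 8 granulocyte, 2 of 8 T and NK cell, 1 of 5 B cell, 2 of 6 erythroid and megakaryocytic and 3 of 6 epithelial and fibroblast markers did. In bulk RNA, a different share of cells that express a gene and a different level per cell cannot be told apart.

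**Figure D1:**
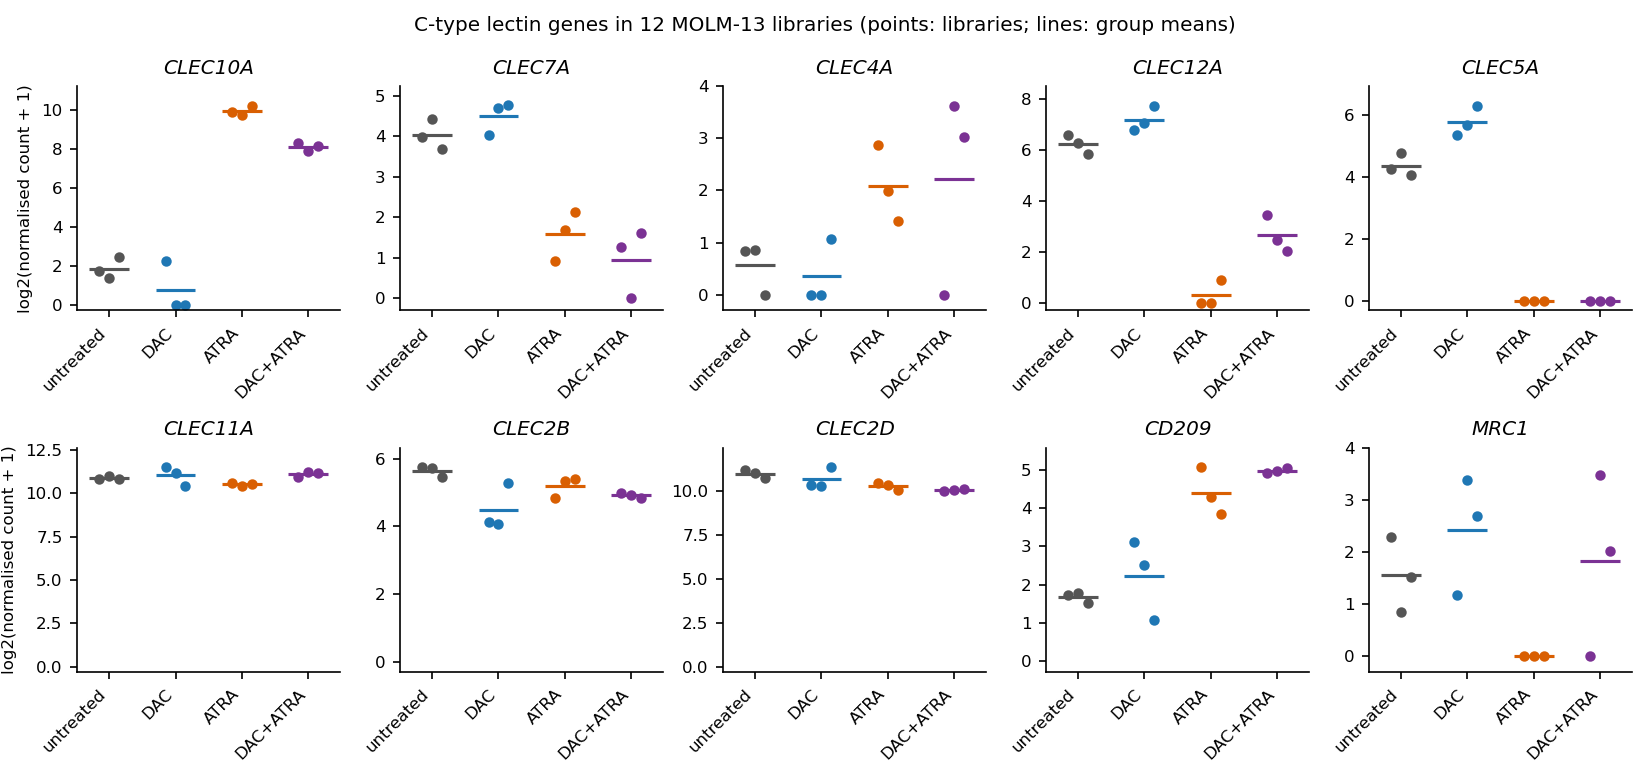
Level of each of the 10 genes in the 12 libraries, as log2(normalised count + 1) on the vertical axis, with points for libraries and lines for group means (n = 3). CLEC10A and CD209 are higher in every library with ATRA than in any without, and CLEC12A, CLEC5A and CLEC7A are lower in every library with ATRA.

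Changes were tested with limma on log2(normalised count + 1) over all 12 libraries, and the threshold for a call was an adjusted p of 0.01. CLEC4A and MRC1 stayed under the minimum of 10 normalised counts in 3 libraries and were not tested, so 8 of the 10 genes were. CLEC10A and CD209 reached 10 normalised counts only in libraries with ATRA, and CLEC12A, CLEC5A and CLEC7A only in libraries without it. These genes thus entered through the groups where they are high, and the share called among the 8 is no test of the set. With ATRA against untreated, 6 of these 8 were called, CLEC10A and CD209 upward and CLEC12A, CLEC5A, CLEC7A and CLEC2D downward. Over all 10642 genes tested, 26% were called in this comparison, 12.1% upward and 14% downward. DAC+ATRA against untreated gave calls for the same 6 genes in the same directions, beside 28.9% of all genes (14.5% upward, 14.4% downward). DAC alone gave no call among the 8 with limma and 4 with an unadjusted p under 0.05, where limma called 7.97% of all genes (4.29% upward, 3.67% downward). DESeq2 called 2 of the 8 beside 11.5% of all genes, and edgeR 1 beside 8.96%. The median log2 fold change of the 8 genes was 0.31 with DAC, -0.58 with ATRA and -0.82 with DAC+ATRA, against medians over all genes of -0.0041, -0.038 and -0.0039. CLEC5A is at 0 in some groups, and these 3 medians are set by other genes. The treatment comparisons share the untreated libraries.

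**Figure D2:**
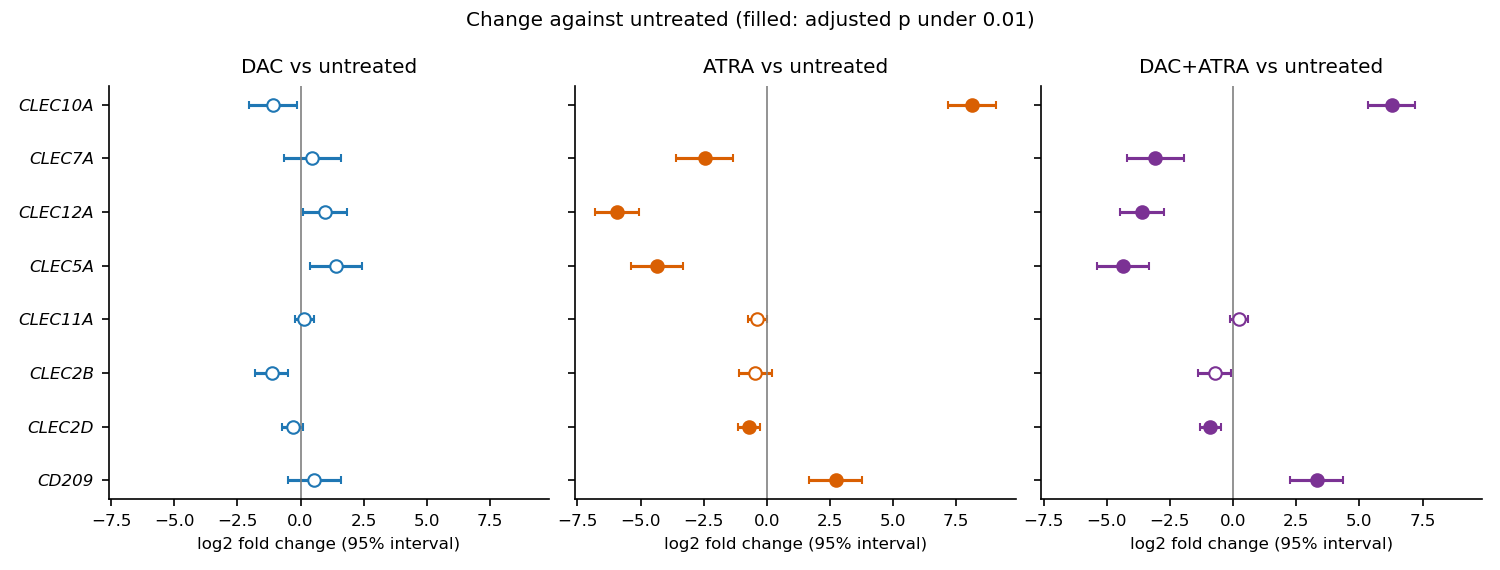
Log2 fold change of the 8 tested genes against untreated, with its 95% interval on the horizontal axis, for DAC, ATRA and DAC+ATRA (3 against 3 libraries each). Filled points were called and open points were not; the DAC panel has open points only, and the 6 filled points of the ATRA panel recur in the DAC+ATRA panel.

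Among the glycan-binding receptors, CLEC10A (ENSG00000132514, chr17:7074537-7080307, minus strand) had the largest fitted change of the 8 tested genes. The untreated libraries held 2.33, 1.62 and 4.39 normalised counts, from 3, 2 and 7 reads. DAC left 3.82, 0 and 0. ATRA brought the gene to 975, 872 and 1200.5, and DAC+ATRA to 315, 243 and 283. No library with ATRA overlapped any library without it, and the 3 DAC+ATRA libraries lay below the 3 ATRA libraries. The mean rose from 2.78 ± 1.44 to 1016 ± 168 with ATRA (SD, n = 3), a log2 fold change of 8.12 ± 0.45 (SE; limma adjusted p = 2.91e-11). On the reads the ratio was 346 (95% counting interval 198 to 671). DAC+ATRA reached 280 ± 36.0 and rose by 6.28 on the log2 scale against untreated (limma adjusted p = 1.61e-09) and by 7.37 against DAC (1.63e-10). Since DAC alone gave only 3 reads in all, its ratio to DAC+ATRA of 217 has a counting interval from 74.0 to 1055. Against ATRA alone, DAC+ATRA fell by 1.85 on the log2 scale (limma adjusted p = 0.00579), a level 3.6-fold lower. That call was lost without any single ATRA or DAC+ATRA library (adjusted p 0.0184 to 0.0373) and with a pseudocount of 0.1 (0.182).

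The transcripts of CLEC10A moved together. Of its 4 rows, 3 held reads, and CLEC10A-201 took 46.9%, 43.1% and 46.5% of the gene's level in untreated, ATRA and DAC+ATRA, while CLEC10A-206 took 45.6%, 47.6% and 47.4%. The remainder was CLEC10A-204, which has 9 bases that no other transcript row of the gene covers. The order ATRA over DAC+ATRA over untreated held in each of the 3 rows. In the 9 treated libraries the genes most like CLEC10A, by the root mean square difference of log2 levels relative to untreated, were HIC1 at 0.67, EXOC3L2 at 1.06 and CD1D at 1.08. HIC1 averaged 17.5 normalised counts in untreated cells and 7.86 with DAC, but 3238 with ATRA and 1774 with DAC+ATRA.

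**Figure D3:**
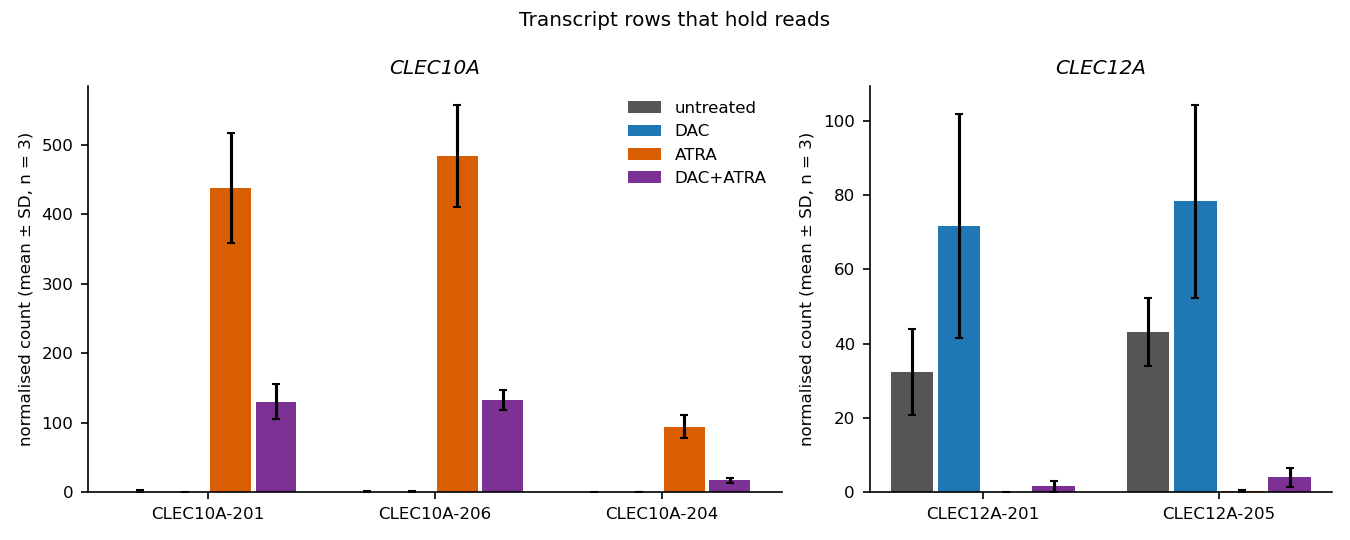
Transcript rows of CLEC10A and CLEC12A that held reads, as mean normalised count ± SD over 3 libraries per group on a linear axis from 0. With ATRA, CLEC10A-201 and CLEC10A-206 hold 43.1% and 47.6% of the gene's level, and both CLEC12A rows are at or near 0.

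CD209 (ENSG00000090659, chr19:7739993-7747564, minus strand), a receptor for high-mannose and fucosylated glycans, was low throughout but shifted the same way. Untreated libraries held 2.33, 2.44 and 1.88 normalised counts, 3 reads in each. DAC libraries held 7.63, 4.70 and 1.09, a range that takes in the untreated values. With ATRA the values were 33.1, 18.6 and 13.4, and with DAC+ATRA 29.4, 30.4 and 32.7. Every library with ATRA lay above every library without. The log2 fold change was 2.73 ± 0.50 with ATRA (SE; limma adjusted p = 2.26e-04), that of DAC+ATRA was 3.31 ± 0.50 (2.86e-05), and the read ratios were 9.75 (4.88 to 22.1) and 14.2 (7.09 to 32.1). DAC+ATRA exceeded DAC by 2.76 (limma adjusted p = 2.95e-04). DAC+ATRA differed from ATRA by 0.58 with a 95% interval from -0.46 to 1.62 and did not pass the test (0.455). All reads of the gene came from 1 transcript row, CD209-203, and another gene annotated on the same strand overlaps it. IL31RA (0.55), EFNB2 (0.57) and GPC2 (0.58) were the genes most like it by the same measure.

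MRC1 (ENSG00000260314, chr10:17809348-17911164, plus strand), the mannose receptor of macrophages, was too low to test. It held 5, 1 and 3 reads in untreated, 1, 6 and 5 in DAC, and 0, 9 and 3 in DAC+ATRA. No read was found in the 3 ATRA libraries, which allows up to 2.69, 2.23 and 2.51 normalised counts there. The DAC+ATRA libraries spread over the whole range seen in the other groups. With the minimum lowered to 1 normalised count, the log2 difference between ATRA and untreated was -1.56 (limma adjusted p = 0.131) and that between DAC+ATRA and ATRA 1.83 (0.106), neither of them called.

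Markers of dendritic cells and macrophages were read beside these receptors. Of the 10 conventional dendritic cell markers, CD1C averaged 2.61 normalised counts in untreated cells and 119 with ATRA, CD1A 8.55 and 138, CD1B 0 and 10.9, ZBTB46 0 and 15.01, and IRF4 9.84 and 138, whereas XCR1 was at 0 in all libraries and CLEC9A at 0 with ATRA. The list's summed level, most of it FLT3, ranged from 13887 to 14275 in untreated, 7507 to 9570 in DAC, 7830 to 9206 in ATRA and 7388 to 7972 in DAC+ATRA. The 10 monocyte and macrophage markers summed to 2155 to 2376 in untreated and 2578 to 2875 in DAC, and to 1568 to 1623 with ATRA and 1646 to 1787 with DAC+ATRA, the direction of CLEC12A, CLEC5A and CLEC7A described next. FCGR3A and CD68 were at 0 in all libraries. A 0 for a marker need not mean absence, since reads that fit several transcripts appear to have been left out. The 11 markers of MOLM-13 and myeloid leukemia summed to 24788 to 25508 in untreated, 36000 to 46148 in DAC, 16850 to 19443 in ATRA and 25708 to 27653 in DAC+ATRA. The part of these markers in the results was not tested.

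Among the receptors that signal, CLEC12A (ENSG00000172322, chr12:9951316-9995694, plus strand) was nearly lost with ATRA. Untreated libraries held 94.9, 75.5 and 56.5 normalised counts and DAC libraries 109, 130 and 210. With ATRA the values were 0, 0 and 0.836, a single read in all. With DAC+ATRA they were 9.80, 4.50 and 3.06, from 7, 4 and 3 reads. The 4 groups did not overlap, in the order DAC, untreated, DAC+ATRA, ATRA. The mean fell from 75.6 ± 19.2 to 0.279 ± 0.483 with ATRA (SD, n = 3; log2 fold change -5.94 ± 0.42, limma adjusted p = 1.07e-09). Read for read this is a level 271-fold lower, with a counting interval from 48.3 to 10747. DAC+ATRA lowered it by a log2 fold change of -3.59 against untreated (limma adjusted p = 1.26e-06) and of -4.54 against DAC (7.53e-08).

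CLEC12A stood higher in DAC+ATRA than in ATRA, by 2.35 ± 0.42 on the log2 scale (SE; limma adjusted p = 4.47e-04). The read ratio was 19.8, with an interval from 3.02 to 838 because ATRA gave a single read. The difference ranged from 0.99 to 4.64 over the alternatives. The call was lost with edgeR (3.82, adjusted p = 0.0109), with a pseudocount of 5 (0.99, 0.0209) and when only these groups entered the fit (0.0159). The rise with DAC alone, from 75.6 ± 19.2 to 150 ± 53.2, was 0.95 on the log2 scale and was not called (limma adjusted p = 0.136; DESeq2 called it at 0.00764). The interaction (the change by DAC in the presence of ATRA minus its change in the absence of ATRA) was 1.39 with a 95% interval from 0.16 to 2.63 (limma adjusted p = 0.259). It ranged from 0.069 with a pseudocount of 5 to 3.68 with a pseudocount of 0.1 and was called under no alternative. CLEC12A-201 and CLEC12A-205 both carried the gene, with 42.8% and 57.2% of its level in untreated and 47.8% and 52.2% in DAC. Genes on the opposite strand, CLEC1B and an antisense RNA, reached at most 2.18 and 1.27 normalised counts. PLXND1 (0.62), CDRT1 (0.91) and C5AR2 (0.91) followed it most closely over the treated libraries.

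CLEC5A (ENSG00000258227, chr7:141927357-141947007, minus strand), an activating receptor, gave no read in any of the 6 libraries with ATRA. In untreated cells it held 17.9, 26.0 and 15.7 normalised counts, from 23, 32 and 25 reads. DAC libraries held 39.4, 50.2 and 77.3, all above the untreated libraries. Against the floor of 3 reads per library, CLEC5A was at least 7.39-fold lower with ATRA and at least 4.73-fold lower with DAC+ATRA than untreated, and at least 13.2-fold lower with DAC+ATRA than with DAC. The limma adjusted p was 8.57e-07, 9.12e-07 and 2.65e-08 for these comparisons. The difference between DAC and untreated was 1.42 ± 0.49 on the log2 scale (SE), higher in 3 of 3 libraries, and missed the threshold (limma adjusted p = 0.0585). DESeq2 (0.00313), edgeR (0.00960) and a pseudocount of 5 (0.00577) called it. CLEC5A-206 carried 96.8% of the level in untreated and 99.3% in DAC. Most like it was another C-type lectin gene, CLEC12B (0.71), with 17.2 ± 8.51 normalised counts in untreated, 19.5 ± 3.87 in DAC and no read with ATRA or DAC+ATRA; S1PR3 (0.87) and IRX3 (0.91) came next.

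CLEC7A (ENSG00000172243, chr12:10116777-10130258, minus strand) fell in both groups with ATRA as well. The untreated libraries held 14.8, 20.3 and 11.9 normalised counts, and DAC left them at 15.3, 25.1 and 26.1. Values of 0.896, 2.23 and 3.34 were found with ATRA and of 1.40, 0 and 2.04 with DAC+ATRA. The libraries with ATRA lay below all others, and the DAC and untreated libraries overlapped. The log2 fold change was -2.45 ± 0.54 with ATRA (SE; limma adjusted p = 0.00125), -3.07 ± 0.54 with DAC+ATRA (1.43e-04) and -3.54 for DAC+ATRA against DAC (4.63e-05). The ATRA call was lost with a pseudocount of 0.1 (adjusted p = 0.0219) and without untreated replicate 2 (0.0121). In reads the level was 7.0-fold lower (3.35 to 16.9) with ATRA and 13.2-fold lower (4.31 to 65.7) with DAC+ATRA, the latter from 3 reads. DAC+ATRA and ATRA differed by -0.62 (95% interval -1.75 to 0.50; limma adjusted p = 0.457). H3C8 (0.48), SLC11A1 (0.53) and SMIM10L2A (0.65) resembled it most.

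CLEC4A (ENSG00000111729, chr12:8123617-8138607, plus strand), an inhibitory receptor, was barely read. It held 1, 1 and 0 reads in untreated cells and 0, 0 and 1 with DAC, against 7, 4 and 2 with ATRA and 0, 10 and 7 with DAC+ATRA. All ATRA libraries exceeded all untreated libraries, while 1 DAC+ATRA library held nothing. The read ratio of ATRA to untreated was 7.31 (1.65 to 66.7). With the minimum lowered to 1 normalised count, ATRA differed from untreated by 1.53 on the log2 scale (limma adjusted p = 0.143) and DAC+ATRA by 1.65 (0.104), and neither was called. Genes annotated on the same strand overlap it.

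CLEC2B (ENSG00000110852, chr12:9852369-9869386, minus strand), the ligand of KLRF1 (NKp80), held 52.9, 52.0 and 42.7 normalised counts in untreated and 16.5, 15.7 and 38.1 in DAC. ATRA gave 27.8, 39.4 and 41.0, and DAC+ATRA 30.8, 29.3 and 27.6. Every treated library lay below every untreated library, and no comparison was called. The log2 fold change with DAC was -1.15 ± 0.31 (SE; limma adjusted p = 0.0162). Without DAC replicate 3, the highest of the DAC libraries, it was -1.55 and was called (4.90e-04). For ATRA it was -0.45 (95% interval -1.10 to 0.20) and for DAC+ATRA -0.73 (-1.38 to -0.07; limma adjusted p = 0.071). CLEC2B-201 took 90.8% to 100% of the level in each group. TNS1 (0.26), TRAPPC6B (0.35) and ARMCX3 (0.36) were nearest to it.

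CLEC11A (ENSG00000105472, chr19:50723364-50725708, plus strand), the secreted growth factor, was not called in any comparison over the 12 libraries. Untreated libraries held 1816, 2024 and 1829 normalised counts, DAC libraries 2872, 2330 and 1378, ATRA libraries 1537, 1362 and 1486 and DAC+ATRA libraries 1970, 2393 and 2326. The ATRA libraries lay below the untreated and DAC+ATRA libraries, and the DAC libraries spread from the ATRA values to above all other libraries. DAC+ATRA differed from ATRA by 0.61 ± 0.18 on the log2 scale (SE; limma adjusted p = 0.0199). ATRA differed from untreated by -0.37 (95% interval -0.74 to 0.0016; 0.114) and DAC from untreated by 0.15 (-0.22 to 0.52; 0.628). Here DAC replicate 3 was the lowest of its group. Without it the difference with DAC was 0.45 and was called (limma adjusted p = 0.00548), and without DAC replicate 1 it was -0.07. The same removal of DAC replicate 3, which leaves the differences themselves as they were, brought calls for ATRA against untreated (0.00494) and DAC+ATRA against ATRA (1.01e-04), and that of DAC replicate 1 for the latter (0.00577). When only the groups compared entered the fit, both were called as well (limma adjusted p = 0.00685 and 8.36e-04). WDR18 (0.13), PGP (0.15) and MYBBP1A (0.16) had the most similar profiles.

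CLEC2D (ENSG00000069493, chr12:9664969-9699553, plus strand), the ligand of KLRB1 (CD161), held 2356, 2073 and 1698 normalised counts in untreated and 1309, 1256 and 2618 in DAC. ATRA gave 1389, 1287 and 1066, and DAC+ATRA 1048, 1066 and 1124. All libraries with ATRA lay below all untreated libraries, and DAC replicate 3 lay above them. The log2 fold change was -0.71 ± 0.20 with ATRA (SE; limma adjusted p = 0.00897) and -0.91 ± 0.20 with DAC+ATRA (0.00125). The ATRA call was lost in 12 of 25 alternatives, among them the removal of untreated replicate 1 (-0.60, adjusted p = 0.0510), untreated replicate 2 (0.0322) or any single library with ATRA (0.0110 to 0.0543). DAC gave -0.31 (0.326), and without DAC replicate 3 -0.66, which was called (6.83e-04).

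The reads of CLEC2D need care. The row CLEC2D-203 carried 97.3% to 98.1% of the level in each group. The last exon of that transcript, chr12:9694760-9699553, contains NPM1P7, a processed pseudogene of the nucleophosmin gene NPM1 at chr12:9695384-9696227 on the same strand. The pseudogene's 844 bases were 92.8% identical to an NPM1 transcript, and 127 of its 795 windows of 50 bases (16.0%), the length of a read, occurred unaltered in NPM1. Across the 12 libraries the ratio of CLEC2D to NPM1 ranged from 1.15 to 1.54, a factor of 1.34, while CLEC2D itself ranged over a factor of 2.50 and NPM1 over 2.29. For CLEC2D-202, which lacks the pseudogene, the ratio to NPM1 ranged over a factor of 2.77, on 17.4 to 65.2 normalised counts. NPM1 fell by 0.81 on the log2 scale with ATRA (limma adjusted p = 6.05e-04) and by 0.97 with DAC+ATRA (1.03e-04), and it was among the 3 genes most like CLEC2D (0.14), after HNRNPA1P48 (0.13) and MAP3K13 (0.13). Without CLEC2D-203, an alternative chosen after seeing the data, CLEC2D changed by -0.72 with ATRA (limma adjusted p = 0.0607), by -1.38 with DAC+ATRA (8.16e-04) and by -1.13 for DAC+ATRA against DAC (0.00605). How many of the CLEC2D-203 reads came from NPM1 was not tested.

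**Figure D4:**
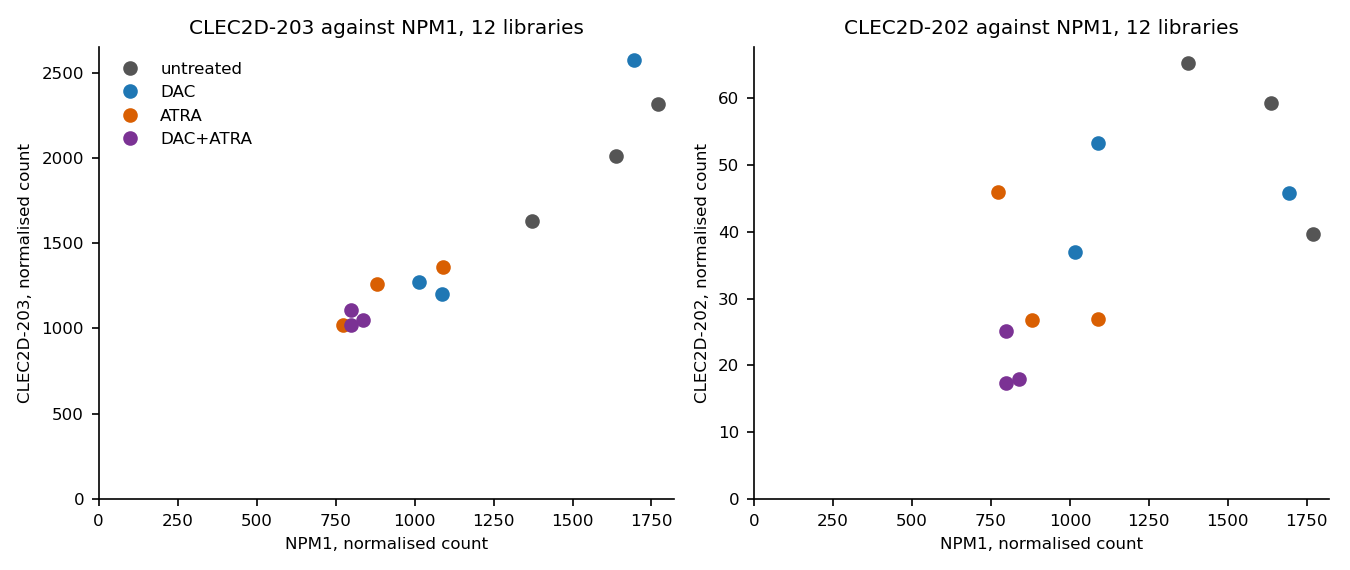
Normalised counts of CLEC2D-203 (left) and CLEC2D-202 (right) against those of NPM1, with a point for each of the 12 libraries and linear axes from 0. The CLEC2D-203 points follow NPM1 from 772 to 1770 normalised counts, including the high DAC library, and the CLEC2D-202 points scatter more.

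For DAC+ATRA against ATRA, 2 of the 8 tested genes were called, CLEC12A upward and CLEC10A downward, beside 11.9% of all genes (6.47% upward, 5.46% downward). Adding ATRA to DAC gave calls for 5 of 8, CLEC10A and CD209 upward and CLEC12A, CLEC5A and CLEC7A downward, beside 18.8% of all genes (9.04% upward, 9.74% downward). CLEC2D missed this threshold (-0.59, limma adjusted p = 0.0325). The interaction was called for none of the 8 with limma, DESeq2 or edgeR, with 1 unadjusted p under 0.05 (CLEC12A), against 1.6% of all genes with limma (0.724% upward, 0.874% downward), 3.18% with DESeq2 and 1.84% with edgeR. Its 95% intervals were wide for the low genes, from -2.08 to 0.57 for CLEC10A and from -1.44 to 1.51 for CD209.

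Of the 10 genes, 5 lie in a stretch of 2.01 Mb on chromosome 12 (chr12:8123617-10130258) that holds 29 protein-coding genes. Of the 24 others, 23 were in the table and 5 could be tested. With ATRA, A2M (alpha-2-macroglobulin) rose by 1.5 on the log2 scale (limma adjusted p = 1.76e-05) and CLEC12B, an inhibitory receptor, fell (8.95e-06), while M6PR, KLRG1 and CD69 were not called. CLEC12B was at 0 in all libraries with ATRA. With DAC+ATRA the same 2 genes were called and CD69, an activation antigen, fell by 2.76 (1.43e-06); with DAC, CD69 fell by 1.67 (0.00141). KLRB1 and KLRF1, the receptors for CLEC2D and CLEC2B, also lie in the stretch and held at most 1 and 0 reads in any library; they were looked up after the values were seen.

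**Figure D5:**
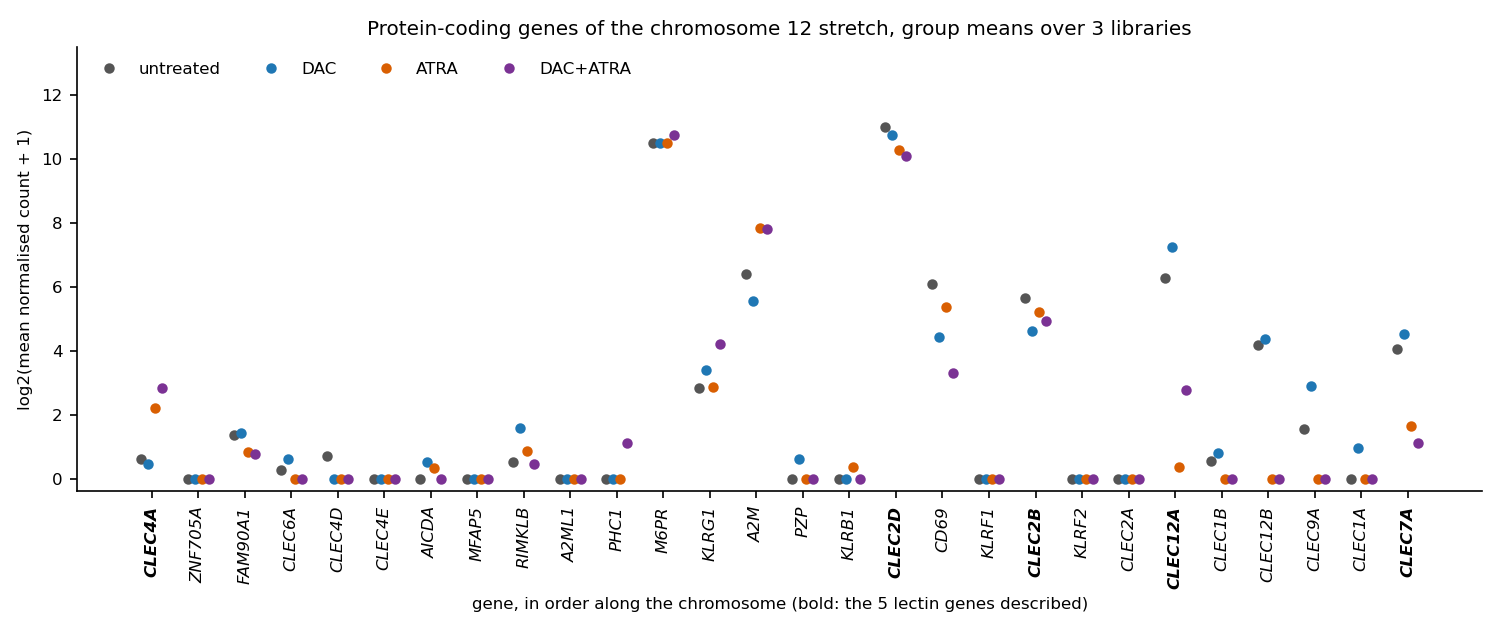
Group means of the protein-coding genes of the chromosome 12 stretch in their order along the chromosome, as log2(mean normalised count + 1), with the 5 lectin genes described here in bold. CLEC12A, CLEC12B and CLEC7A are lower with ATRA and DAC+ATRA than without, whereas M6PR stays between 1432 and 1716 normalised counts.

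Of 45 other genes with a C-type lectin domain, 15 could be tested. ATRA raised 6 and lowered 2 of them, DAC+ATRA raised 7 and lowered 3, and DAC raised 1 and lowered 2; their median log2 fold change was 0.60, 0.92 and 0.15. Over all genes the share called was 26%, 28.9% and 7.97%, and the median -0.038, -0.0039 and -0.0041. THBD (thrombomodulin) went from 328 ± 49.8 to 12377 ± 1692 normalised counts with ATRA (SD, n = 3; 5.23 on the log2 scale, limma adjusted p = 1.07e-16) and to 6628 ± 103 with DAC+ATRA. CLEC17A, a receptor of B cells, rose by 7.13 with ATRA (5.57e-10) and by 6.81 with DAC+ATRA (1.29e-09), from 1.11 ± 1.28 to 259 ± 21.1 and 208 ± 20.1. CD72, a coreceptor of B cells, rose by 2.82 with ATRA (5.84e-05), and ASGR2, a subunit of the asialoglycoprotein receptor, rose by 3.40 with DAC+ATRA (4.03e-07). PRG2, the eosinophil major basic protein, fell from 1134 ± 210 to 39.9 ± 10.05 with ATRA (-4.81, 4.56e-12) and to 121 ± 21.6 with DAC+ATRA (-3.22, 1.98e-09). With DAC alone CD93 rose by 0.51 (limma adjusted p = 0.00134) and THBD fell by 0.59 (0.00189).

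Of 30 genes for signalling components and partners of these receptors, 28 were tested. ATRA raised 10 and lowered 3, DAC+ATRA raised 9 and lowered 1, and DAC raised 4 and lowered 1, with median log2 fold changes of 0.61, 0.24 and 0.023, beside the same shares and medians over all genes. HCST, an adaptor of CLEC5A, rose from 69.7 ± 2.70 to 247 ± 26.5 with DAC (1.81, limma adjusted p = 1.56e-06) and fell to 31.2 ± 4.43 with ATRA (-1.14, 6.13e-05). FCER1G, the gamma chain of Fc receptors with its activating motif, rose with ATRA (1.84, 1.60e-08) and DAC+ATRA (1.98, 6.94e-09). CARD9, which acts below CLEC7A, rose with DAC from 31.2 ± 10.02 to 104 ± 7.15 (1.75, 2.28e-05). The kinase gene PRKCD rose with DAC (2.64, 0.00228), ATRA (2.38, 0.00165) and DAC+ATRA (3.15, 1.16e-04). PRKCD was low throughout, with at most 19 reads in any library. Its mean was 1.11 ± 1.28 normalised counts in untreated cells and 11.02 ± 3.96 with DAC (SD). With ATRA it was 9.44 ± 5.06 and with DAC+ATRA 15.6 ± 3.27. NFATC1, a transcription factor of the NFAT family that acts downstream of Dectin-1, rose with ATRA (2.49, 4.78e-07) and fell with DAC (-1.30, 0.00249). LSP1, known to bind the tail of CD209, rose by 2.21 with ATRA (2.94e-10). With HCST, the genes that fell with ATRA were TLR2, which cooperates with Dectin-1, by 1.62 (4.81e-07) and the scaffold gene KSR1 by 1.17 (0.00688). MALT1, a partner of CARD9 and BCL10, was the only gene of the 28 called downward with DAC+ATRA (-0.72, 7.90e-04), and the kinase gene SRC rose there by 2.08 (8.78e-05).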

How the data were processed

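RNA from 12 libraries of MOLM-13, 3 in each of 4 groups, was analysed. Per the sources, ribosomal RNA was depleted, strand-specific libraries were sequenced in paired ends, and reads were aligned to hg38 with STAR, counted with HTSeq and normalised with DESeq2; FastQC was used for quality control, and the annotation release is not given in the sources used here. The deposited values are a normalised signal per transcript: the authors divided the read counts of each library by its size factor, and 100% of values were whole reads within 0.1 read after division. The 100502 rows were summed per symbol, and positions came from GENCODE 44 (88.9% of rows matched).

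The 10 genes, the gene lists and the tests were chosen with earlier results of these data known. The test was limma 3.58.1 in R 4.3.3 with a trend, on log2(normalised count + 1), a scale that understates changes of low genes, with all 12 libraries in 1 fit without covariates. Only protein-coding genes that reached 10 normalised counts in 3 or more libraries entered (10642), p-values were adjusted by Benjamini-Hochberg per comparison, and calls needed an adjusted p under 0.01. Columns named CTRL were taken as untreated. Replicate libraries differed by more than sampling noise (chi-square per degree of freedom 2.18 to 20.5). Ratios of reads carry exact 95% counting intervals, which cover counting error only, and the floor was 3 reads per library. From each list the 3 called genes with the largest rise and the 3 with the largest fall per treatment were named, if a group's mean reached 10 normalised counts, and for each tested gene the 3 genes most like it. The fit was tested on simulated data. As alternatives, the recovered reads were tested with edgeR 4.0.16 and DESeq2 1.42.0, and the fit was repeated with TMM factors, pseudocounts of 0.1 and 5, minima of 1 and 50, all symbols, only the groups compared, the highest transcript row, a threshold of 0.05, a replicate block and each library left out.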

Additional observations from a re-analysis of the deposited data

How the results depend on the processing

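Of 1162 values of single genes under the alternatives, 1105 kept their direction and side of the threshold, 24 lost a call, 18 gained a call and 15 changed sign. The number of genes called with DAC against untreated, 0 of 8, became 2 with DESeq2, 1 with edgeR, 1 with a pseudocount of 5 and 1 at a threshold of 0.05, where the share of all genes called went from 7.97% to 11.5%, 8.96%, 8.39% and 15.4%. It ranged from 0 to 3 with each library left out: 3 without DAC replicate 3 (CLEC11A, CLEC2B and CLEC2D; 13.1% of all genes) and 1 without DAC replicate 1 (CLEC10A, which held 0 reads in the remaining DAC libraries; 6.1% of all genes). For DAC+ATRA against ATRA the count was 2, beside 11.9% of all genes. It became 1 with edgeR (12.9% of all genes), 1 with a pseudocount of 0.1 (11.3%) and 1 with a pseudocount of 5 (12.4%). At a threshold of 0.05 CLEC11A was added (21.1%). With each library left out the count ranged from 1 to 3, beside 7.7% to 16.8% of all genes. The count was 3, with CLEC11A added, without DAC replicate 1 (13.3%) or 3 (16.8%). A minimum of 50 normalised counts left 4 of the genes to test. The counts, lower since fewer genes were tested, were then 3 with ATRA, 3 with DAC+ATRA and 2 for DAC+ATRA against DAC. The shares of all genes called were 32%, 35.8% and 23.4%. Sign changes were found for CLEC11A with DAC (from -0.075 without DAC replicate 1 to 0.45 without DAC replicate 3) and for DAC+ATRA against DAC (-0.22 without DAC replicate 3 to 0.31 without DAC replicate 1), and otherwise for interactions that were not called. The CLEC10A interaction was 1.12 with a pseudocount of 0.1 and ranged from -1.13 to 0.0040 with each library left out, the CLEC2D interaction was -0.41 without CLEC2D-203 and ranged from -0.071 to 0.46, and the CD209 interaction was -0.49 with DESeq2, -0.44 with edgeR and -0.013 with a pseudocount of 0.1 and ranged from -0.55 to 0.47. The cause of these shifts was not tested. The replicate numbers did not pair the libraries: same-numbered libraries correlated between -0.26 and 0.11 in their deviations from the group means, 2 of 18 pairs exceeded 0.1, and 5 of 12 libraries correlated best with their own number. The replicate block changed the call of CLEC2D with ATRA (-0.71, adjusted p = 0.0153) and no other call of these genes. CLEC4A and MRC1 held the fewest reads of these genes, at most 10 in a library, and the part of depth in this was not tested.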
